A study of Mus musculus with 12 samples.

Results

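The 10 genes described here, Usp2, Ypel2, Por, Wee1, Pim3, Tspan4, Lonrf3, Coq10b, Klf10 and Klf11, are clock outputs: genes outside the core clock whose transcripts follow the day in many mouse tissues. They were taken by symbol from a table of 40840 genes, and all 10 were found. They were chosen by their measured course over time in these same libraries, so their 24 h curves are a description, and calls made on them are given only beside the share of all genes called. The libraries hold pancreas RNA of male C57BL/6J mice killed at 5 months (Young) or 25 months (Old). All mice had free access to chow, no treatment is named, and all were singly housed for 4 weeks in a cycle of 12 h light and 12 h dark. Each age has 1 library at each of 4, 8, 12, 16, 20 and 24 h, labelled ZT, the field's sign for time after lights-on, and tissue was taken in the dark. Since no time is repeated within an age and the number of mice behind a library is not stated, p-values measure only the spread of single libraries about the fitted curve.

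The core clock is a loop in which BMAL1 (encoded by Arntl) and CLOCK bind E-boxes and switch on their own repressors, the period, cryptochrome and REV-ERB genes. Output genes read the same loop, through E-boxes, through D-boxes bound by DBP, TEF and HLF, or through elements bound by REV-ERB and ROR. Outputs driven through E-boxes or D-boxes therefore tend to run with Per1, and outputs repressed by REV-ERB with Arntl. In the pancreas the clock is known for its part in acinar secretion and in insulin release.

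The library labelled Young 4 h stood apart. It held 2918805 counts, against 1030189 to 1404038 in the other 11, and its 5 neuronal markers summed to 1253 CPM (counts scaled to a common library size), against 29.5 to 51.8 CPM elsewhere. The markers Snap25 and Syt1 stood at 226 and 204 CPM there and were at 0 in 7 and 9 of the other 11. The 6 markers of astrocytes and oligodendrocytes summed to 1176 CPM against 17.1 to 37.5, and the 5 acinar markers to 43300 CPM against 90300 to 171000. All 5 acinar markers had counts in all 12 libraries. Fits therefore use the 11 libraries without Young 4 h, and results of all 12 are given beside them.

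Depth limits the genes described here. A single count was worth 0.707 to 1.01 CPM in the 11 libraries, and 3 counts, taken as the detection floor, were worth 2.12 to 3.03 CPM. Only Usp2, Ypel2, Por and Pim3 had enough counts to be among the 5852 genes tested. Wee1, Tspan4, Lonrf3, Coq10b, Klf10 and Klf11 had 0 to 15 counts in each of the 11 libraries, and are given as counts.

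Promoter windows are shown first because they set members with and without clock-type elements side by side. RefSeq's table for GRCm38.p6 gave 9 windows for 8 of the 10 genes, Wee1 and Klf10 having none there. The 250 bases before each listed start were searched on both strands for the E-box CACGTG, its variant CACGTT, the D-box TTANGTAA, the REV-ERB and ROR core TAGGTCA and the cAMP element TGACGTCA. An E-box was found in 1 window each of Coq10b, Tspan4, Lonrf3 and Klf11, so in 4 of 9 windows, against 6.02% of all 32851 windows in the table. Coq10b also held the D-box, which 2.06% of all windows hold. The other 3 motifs, held by 3.85%, 2.23% and 1.55% of all windows, were in none of the 9. The windows of Usp2, Ypel2, Por and Pim3 and the other window of Tspan4 held none of the 5. A match is only a run of letters, and none of these counts was tested.

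The stretches below run 5′ to 3′ on the gene's strand and have motifs in capitals. They leave out the gene's own annotated exons, apart from the end of the Lonrf3 stretch. Exons of other genes were not looked for. Coq10b (chr1:55052520-55052769, plus strand) has its D-box 162 to 155 and its E-box 78 to 73 bases before the start. Tspan4 (the second window, chr7:141476130-141476379, plus strand, inside the annotated gene) has an E-box 51 to 46 bases before the start. Lonrf3 (chrX:36328159-36328369, plus strand) has one 45 to 40 bases before the listed start, which is up to 17 bases past the earliest annotated base of the gene. Klf11 (chr12:24651121-24651273, plus strand) has one 214 to 209 bases before the listed start. Usp2 (chr9:44084670-44084919, plus strand, at a start inside the annotated gene) and Ypel2 (chr11:86993806-86994012, minus strand) are shown as the pair without a match.
Coq10b: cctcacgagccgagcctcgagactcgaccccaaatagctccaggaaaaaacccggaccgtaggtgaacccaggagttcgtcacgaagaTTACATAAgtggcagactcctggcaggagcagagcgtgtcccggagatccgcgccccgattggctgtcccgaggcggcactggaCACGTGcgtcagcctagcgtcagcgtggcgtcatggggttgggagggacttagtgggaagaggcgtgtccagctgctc
Tspan4: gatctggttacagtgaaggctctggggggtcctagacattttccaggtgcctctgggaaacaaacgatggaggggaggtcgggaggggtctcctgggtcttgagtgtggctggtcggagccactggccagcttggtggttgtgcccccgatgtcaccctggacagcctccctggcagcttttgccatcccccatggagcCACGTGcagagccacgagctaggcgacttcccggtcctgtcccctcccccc
Lonrf3: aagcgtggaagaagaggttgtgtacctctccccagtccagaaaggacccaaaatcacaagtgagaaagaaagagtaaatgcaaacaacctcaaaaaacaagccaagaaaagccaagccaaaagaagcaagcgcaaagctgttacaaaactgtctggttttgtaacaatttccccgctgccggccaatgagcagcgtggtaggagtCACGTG
Klf11: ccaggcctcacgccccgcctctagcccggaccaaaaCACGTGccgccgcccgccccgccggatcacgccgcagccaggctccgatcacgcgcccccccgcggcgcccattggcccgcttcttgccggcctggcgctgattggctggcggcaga
Usp2: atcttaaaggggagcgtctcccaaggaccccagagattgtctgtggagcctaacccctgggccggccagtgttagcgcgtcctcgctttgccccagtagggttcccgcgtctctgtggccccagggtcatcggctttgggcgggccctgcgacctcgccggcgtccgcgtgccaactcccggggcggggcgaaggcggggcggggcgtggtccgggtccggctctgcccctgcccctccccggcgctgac
Ypel2: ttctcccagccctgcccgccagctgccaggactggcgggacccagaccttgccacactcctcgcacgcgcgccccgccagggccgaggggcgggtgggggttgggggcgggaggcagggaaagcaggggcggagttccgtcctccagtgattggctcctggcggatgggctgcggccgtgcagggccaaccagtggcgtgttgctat

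Usp2, Por, Pim3, Wee1 and Coq10b were highest at 12 h, the hour at which the light phase ends by convention, apart from Pim3 and Wee1 in Young, which were highest at 8 h. Ypel2 was highest at 24 h, Lonrf3 at 16 h in both ages, Tspan4 at 16 h in Young but at 12 h in Old, and Klf10 and Klf11 had no common course in Young and Old. In the 11 libraries a 24 h curve shared by both ages was called for 1.49% of the 5852 genes, by the quasi-likelihood test of edgeR at a Benjamini-Hochberg adjusted p under 0.05. All 4 tested members were called, and since the members were chosen with this contrast in view, nothing is read from that. DESeq2 (0.991% of genes) and limma-voom (1.21%) called 3 of the 4 each, Por not among them. With 1 more library left out, the edgeR call of Por ended in 7 of 11 fits and that of Usp2 in 1, without Old 12 h. In all 12 libraries the backgrounds were 0.155% for edgeR, which called Usp2 and Ypel2, 0.689% for DESeq2, with 3 called, and 0.138% for limma-voom, with 1 called. Without a filter on low counts it was 0.683%, with 4 of 10 called.

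Usp2 (chr9:44067021-44095627, plus strand) encodes a deubiquitinase, a protease that removes ubiquitin from other proteins, clock proteins among them. In Young it stood at 16.3, 27.8, 15.1, 14.3 and 5.06 CPM at 8, 12, 16, 20 and 24 h, from 18, 34, 15, 15 and 6 counts. In Old it stood at 3.54, 14.8, 27.0, 9.87, 5.97 and 2.39 CPM at 4, 8, 12, 16, 20 and 24 h, from 5, 18, 34, 12, 7 and 3 counts. Both ages were highest at 12 h, at nearly the same CPM, and lowest at 24 h. The highest library was 5.49 times the lowest in Young and 11.3 times in Old. The log2 amplitude, the distance from the mean of the fitted curve to its peak, was 1.10 ± 0.17 (SE, n = 11), with the peak at 12.4 ± 0.6 h. Young 4 h stood at 5.30 CPM, within the range of the others. Usp2 shares 200 exonic bases with 2 genes of the opposite strand, of which Gm39325 had 3 counts in all over the 11 libraries.

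Pim3 (chr15:88862194-88865726, plus strand) encodes a serine/threonine kinase that promotes survival and protein synthesis. In Young it stood at 84.5, 72.7, 58.5, 51.4 and 21.1 CPM from 8 to 24 h, from 93, 89, 58, 54 and 25 counts. In Old it stood at 41.0, 46.1, 128, 47.7, 19.6 and 17.5 CPM from 4 to 24 h, from 58, 56, 161, 58, 23 and 22 counts. Young was highest at 8 h and lower at each later time, whereas Old had 1 library, 12 h, far above its neighbours. The summed level of 9 immediate early genes, which cells switch on within minutes of a stimulus, was also highest in Old 12 h, at 88.2 CPM against 34.6 to 59.0 CPM in Young and 31.5 to 58.9 CPM in the rest of Old. Jun alone gave 53.2 CPM of that sum, Fosb and Ier3 were at 0 in Old 12 h, and Dusp1 was at 0.794 CPM, its lowest in the 11 libraries. The part of these genes in the Pim3 value was not tested. The amplitude was 0.98 ± 0.20 with the peak at 11.4 ± 0.9 h, and 0.80 ± 0.18 without Old 12 h. Young 4 h stood at 10.6 CPM, below all 11 other libraries.

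Por (chr5:135670040-135735326, plus strand) encodes cytochrome P450 oxidoreductase, which passes electrons to the P450 enzymes and heme oxygenase of the endoplasmic reticulum. In Young it stood at 22.7, 36.0, 30.3, 9.52 and 13.5 CPM from 8 to 24 h, from 25, 44, 30, 10 and 16 counts. In Old it stood at 11.3, 13.2, 29.4, 12.3, 9.38 and 10.4 CPM from 4 to 24 h, from 16, 16, 37, 15, 11 and 13 counts. Both ages were highest at 12 h and lowest at 20 h, and in Old the 5 libraries other than 12 h lay within 9.38 to 13.2 CPM. The amplitude was 0.66 ± 0.16 with the peak at 11.5 ± 1.0 h. Young 4 h stood at 32.2 CPM from 152 counts, above all but 1 of the 11.

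Ypel2 (chr11:86936425-86993805, minus strand) belongs to the yippee-like family, small zinc-binding proteins whose function is little known. In Young it stood at 9.08, 8.99, 25.2, 22.9 and 32.9 CPM from 8 to 24 h, from 10, 11, 25, 24 and 39 counts. In Old it stood at 15.6, 8.24, 7.94, 14.8, 27.3 and 31.1 CPM from 4 to 24 h, from 22, 10, 10, 18, 32 and 39 counts. Both ages were lowest at 8 and 12 h and highest at 24 h, where Usp2 was lowest. The amplitude was 0.89 ± 0.10 with the peak at 22.0 ± 0.5 h. Within Old alone, the fit gave 0.96 ± 0.04 (n = 6) with the peak at 22.2 ± 0.15 h. Within Young alone it gave 0.84 ± 0.25 (n = 5) and 21.4 ± 1.5 h. Here and below, an SE within an age comes from the scatter of 5 or 6 libraries and is itself uncertain. The small SE in Old is thus not read as precision. Counting error alone put the Old 24 h value between 22.1 and 42.5 CPM (exact 95% Poisson interval). Young 4 h stood at 12.5 CPM.

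**Figure D1:**
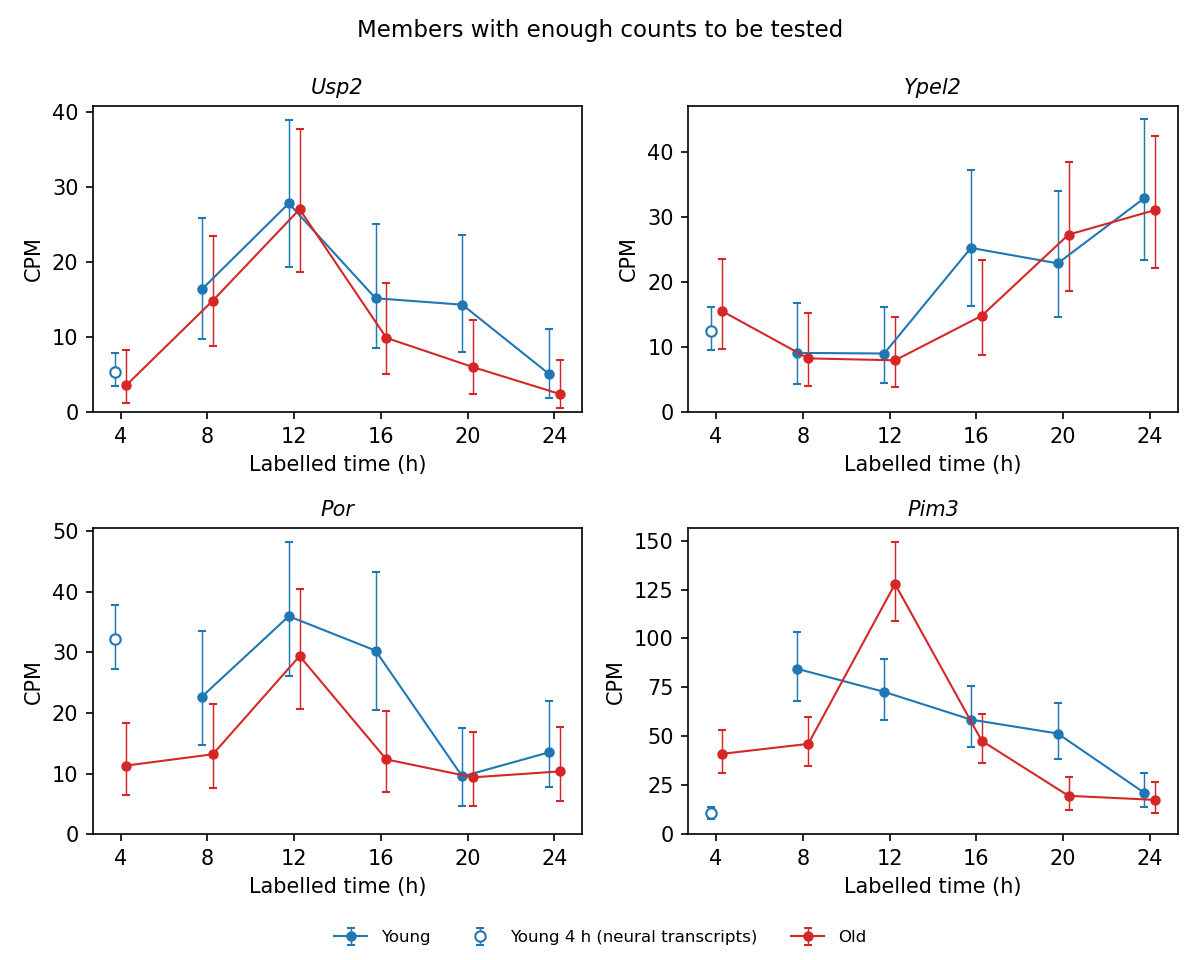
CPM of Usp2, Ypel2, Por and Pim3 against the labelled hour in Young (blue) and Old (red), with 1 library a point and bars for the exact 95% Poisson interval of its count. Usp2 and Por are highest at 12 h in both ages, Ypel2 at 24 h, and the open circle is Young 4 h, at 32.2 CPM for Por and 10.6 CPM for Pim3.

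Wee1 (chr7:110122059-110143299, plus strand) encodes the kinase that holds CDK1 inactive before mitosis, and is a textbook clock target in regenerating mouse liver. In Young it had 13, 10, 8, 5 and 6 counts from 8 to 24 h, or 11.8, 8.17, 8.08, 4.76 and 5.06 CPM. In Old it had 9, 7, 15, 7, 5 and 2 counts from 4 to 24 h, or 6.36, 5.77, 11.9, 5.76, 4.26 and 1.59 CPM. At their highest and lowest times, both ages together held 25 counts at 12 h (10.1 CPM, exact 95% Poisson interval, counting error only, 6.51 to 14.9) and 8 at 24 h (3.28 CPM, 1.42 to 6.46). The amplitude was 0.59 ± 0.15 with the peak at 10.8 ± 1.1 h.

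Coq10b (chr1:55052770-55072702, plus strand) encodes a mitochondrial protein that binds coenzyme Q and serves respiration. In Young it had 2, 11, 1, 2 and 2 counts from 8 to 24 h, so 12 h was the only one of these 5 above the floor, at 8.99 CPM. In Old it had 4, 8, 13, 5, 3 and 4 counts from 4 to 24 h, with 12 h again highest, at 10.3 CPM. Both ages together held 24 counts at 12 h (9.67 CPM, 6.19 to 14.4) and 6 at 16 h (2.72 CPM, 0.998 to 5.92). The amplitude was 0.58 ± 0.23 with the peak at 11.1 ± 1.6 h. The gene shares 343 exonic bases with E330011M16Rik of the opposite strand, so its counts are uncertain, the strand setting being not given in the sources used here.

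Tspan4 (chr7:141475236-141493427, plus strand) encodes a tetraspanin, a membrane protein found in migrasomes, the vesicles left behind by moving cells. In Young it had 2, 6, 13, 6 and 3 counts from 8 to 24 h, and in Old 5, 8, 13, 8, 6 and 10 counts from 4 to 24 h. Young was highest at 16 h, at 13.1 CPM, and Old at 12 h, at 10.3 CPM. The amplitude was 1.16 ± 0.23 in Young (n = 5, from 2 to 13 counts a library), with the peak at 16.4 ± 0.6 h. In Old it was 0.29 ± 0.26 (n = 6). Tspan4 shares 292 exonic bases with Chid1 of the opposite strand, which had 16 to 31 counts a library, so its counts are uncertain.

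Lonrf3 (chrX:36328358-36366857, plus strand) encodes a protein with a RING finger and a LON substrate-binding domain. In Young it had 0, 2, 10, 6 and 3 counts from 8 to 24 h, and in Old 11, 3, 4, 12, 7 and 11 counts from 4 to 24 h. Both ages were lowest at 8 and 12 h and highest at 16 h, where Young stood at 10.1 CPM and Old at 9.87 CPM. Both ages together held 3 counts at 8 h (1.30 CPM, 0.267 to 3.79) and 22 at 16 h (9.97 CPM, 6.25 to 15.1). The fitted amplitude of 0.82 ± 0.27 depends on the prior count of 2 added before taking logs, and was 1.27 ± 0.41 with 0.5. The summed level of 7 islet markers was highest in the same 2 libraries, 731 CPM in Young 16 h and 853 CPM in Old 16 h, against 38.8 to 631 CPM in the rest of Young and 36.6 to 261 CPM in the rest of Old. Of the 7, 6 had counts in both 16 h libraries, and Ppy was at 0. The part of islet content in the Lonrf3 and Tspan4 values was not tested. In bulk tissue, fewer cells of a type and less RNA per cell cannot be told apart.

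Klf10 (chr15:38291464-38300711, minus strand) and Klf11 (chr12:24651371-24662782, plus strand) encode a pair of closely related zinc finger repressors, both first known as early genes induced by TGF-beta, and Klf11 is known in human for its part in insulin gene control. Klf10 had 4, 5, 2, 3 and 2 counts in Young from 8 to 24 h and 9, 7, 9, 1, 2 and 12 in Old from 4 to 24 h. Klf11 had 2, 2, 2, 3 and 3 counts in Young and 5, 1, 4, 1, 1 and 7 in Old. In Young both stayed between 1.63 and 4.09 CPM, near the floor, whereas in Old both were highest in 24 h, at 9.56 and 5.58 CPM, and had 1 count each in 16 h. Old 24 h also had the highest sum of 7 leukocyte markers, 248 CPM against 46.3 to 111 CPM in Young and 30.4 to 79.2 CPM in the rest of Old, and all 7 had counts there. Its 4 fibroblast markers summed to 335 CPM, against 78.1 to 206 CPM in the rest of Old but 219 to 352 CPM in Young. The acinar sum of Old 24 h, 90300 CPM, was the lowest of the 11. The part of these in the Klf10 and Klf11 values was not tested. The amplitudes were 0.57 ± 0.27 and 0.34 ± 0.22, with peaks at 5.8 ± 1.7 and 1.8 ± 2.4 h.

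**Figure D2:**
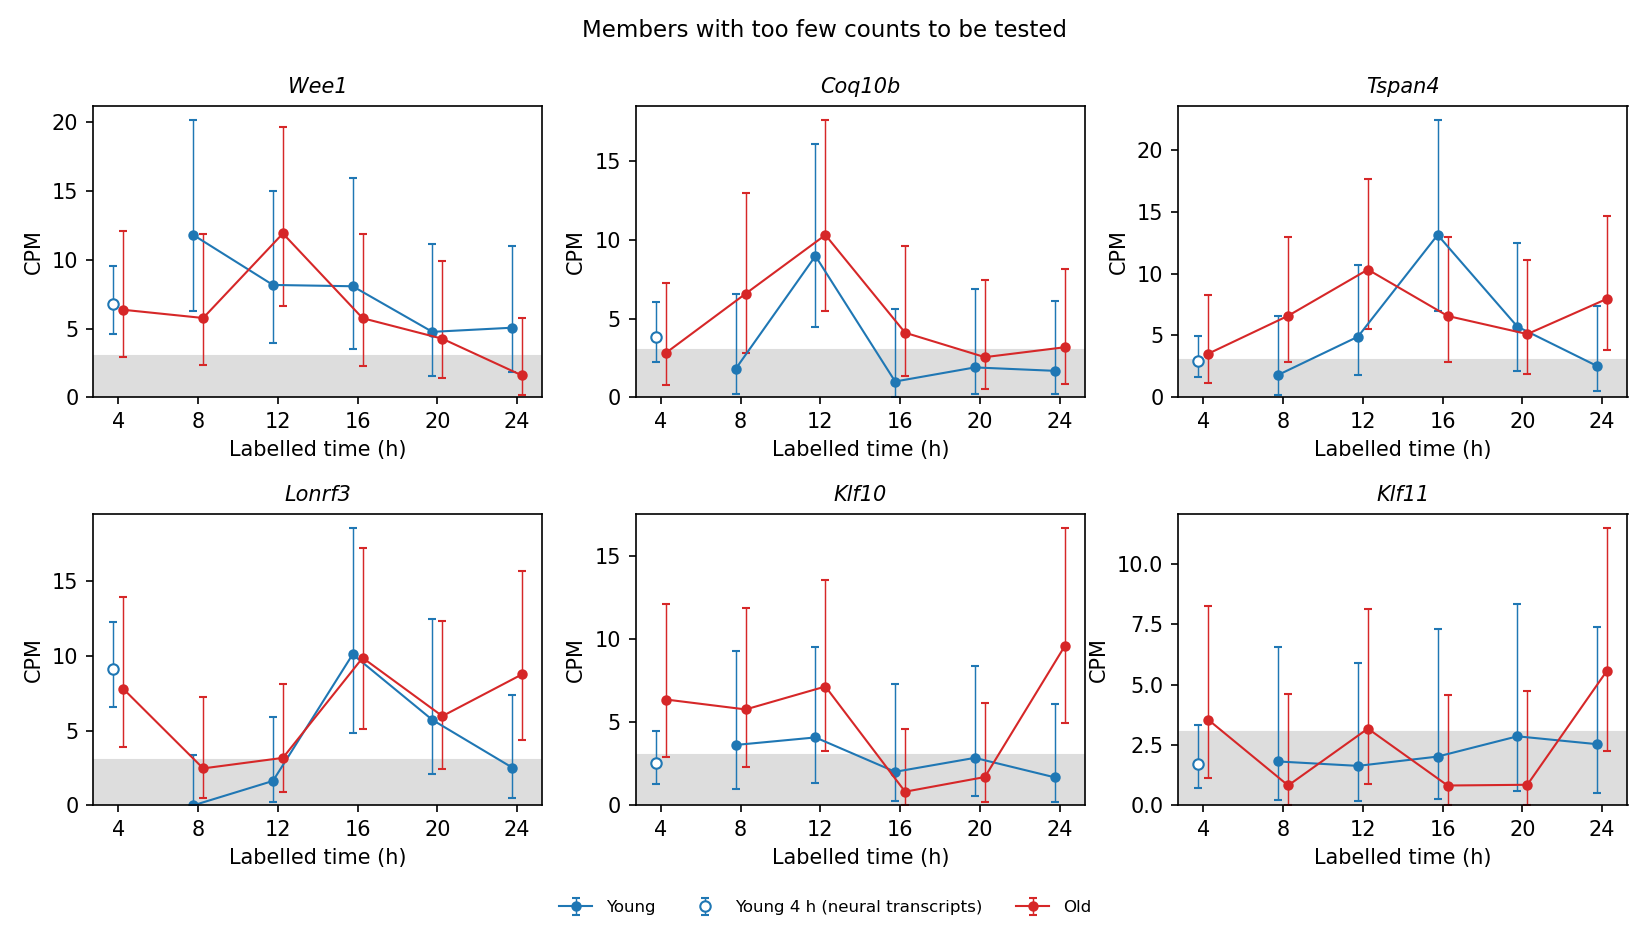
CPM of the 6 members with too few counts to be tested, against the labelled hour in Young (blue) and Old (red), with exact 95% Poisson intervals and a grey band up to 3.03 CPM, the highest floor among the 11 libraries. Of the 5 filled Young points of Coq10b the one at 12 h alone leaves the band, Lonrf3 is highest at 16 h in both ages, and Klf10 and Klf11 are highest in Old 24 h.

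Set beside the 12 tested core clock genes in the same 11 libraries, most members peaked within the hours those genes spanned. The fitted peaks of Klf10 and Klf11 fell in the gap from Arntl (23.1 h) round to Rora (9.5 ± 6.1 h), but were uncertain. In Young and Old they were 10.0 ± 3.0 and 5.0 ± 1.9 h for Klf10. For Klf11 they were 22.4 ± 1.1 and 2.6 ± 3.4 h. Npas2, a core clock gene too low to be tested, peaked at 0.53 ± 0.46 h. Among the 12 tested core clock genes the median log2 amplitude by edgeR was 1.27, and among all tested genes 0.23. Among the 4 tested members, which were chosen by their course over time, it was 0.99. By least squares, as for the members, Nr1d2, which encodes a REV-ERB repressor, peaked at 10.2 ± 0.3 h with an amplitude of 1.64 ± 0.13. Tef, which encodes an activator of D-boxes, peaked at 11.3 ± 0.6 h with 1.31 ± 0.19, and the repressor gene Per1 at 11.5 ± 0.4 h with 1.72 ± 0.18. The peaks of Usp2, Pim3, Por, Wee1 and Coq10b, ran from 10.8 to 12.4 h, that of Usp2 being later than Per1. Arntl peaked at 23.1 ± 0.3 h with 2.54 ± 0.19 and Clock at 20.2 ± 0.8 h with 0.58 ± 0.11, and the Ypel2 peak at 22.0 h lay between them. Lonrf3, at 19.4 ± 1.3 h, lay within its SE of Clock. These peaks are a description, since all genes share the same libraries and the differences between peaks were not tested.

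**Figure D3:**
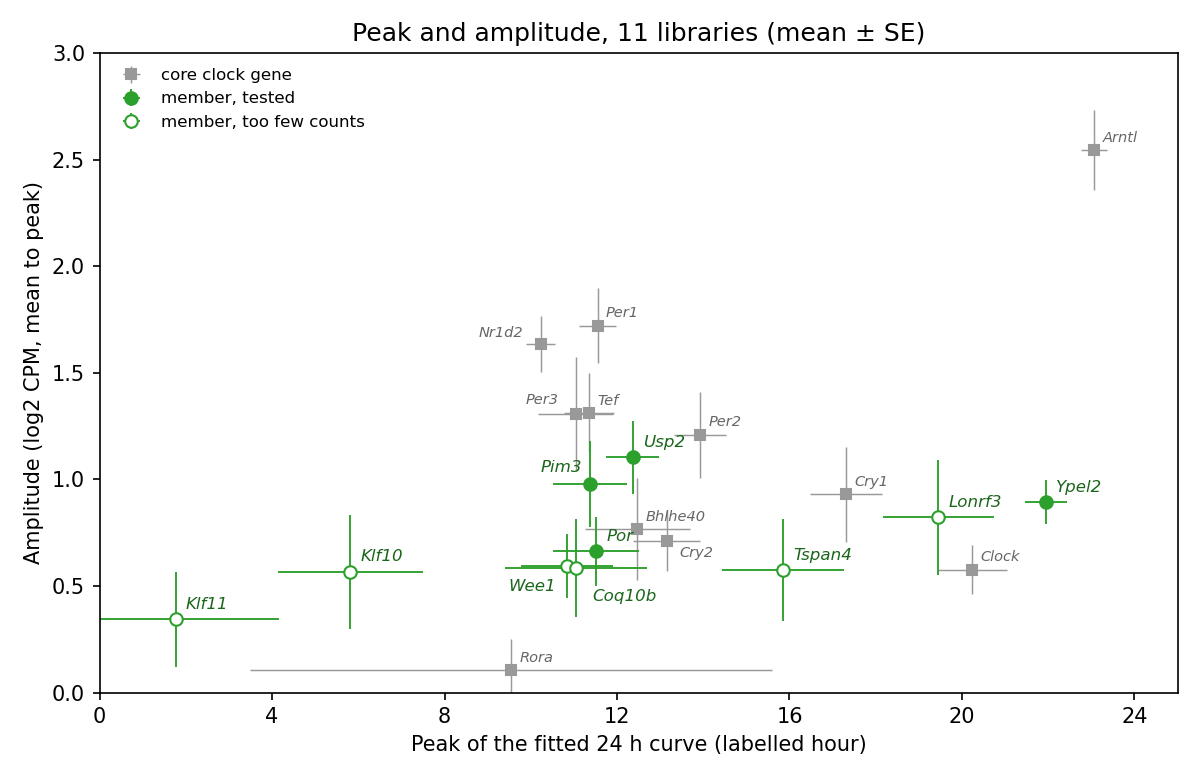
Hour of the fitted peak against log2 amplitude, from least squares fits to 11 libraries with bars for the SE, for members (green, open where counts were too few to test) and 11 of the 12 tested core clock genes (grey squares). Usp2, Pim3, Por, Wee1 and Coq10b have smaller amplitudes than Per1, Tef and Nr1d2. Klf10 and Klf11 lie to the left of all core clock genes shown. Npas2, too low to be tested and not shown, peaked at 0.53 ± 0.46 h.

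The genes whose pattern over the 11 libraries was most like that of each tested member were picked as the 3 highest Pearson correlations of log2 CPM among 5710 other tested genes, predicted genes passed over. For Usp2 these were Wdr43 (r = 0.93), Tef (0.91) and Per1 (0.90). For Ypel2 they were Mlec (0.91), Hivep3 (0.91) and Mettl16 (0.89), for Por Dars (0.92), Sf3b3 (0.89) and Arl5b (0.89), and for Pim3 Rpl35a (0.89), Plpp3 (0.88) and Sgsm3 (0.87). As the highest of 5710 values, these are descriptions without a test. The members were also chosen by their course over time in these libraries, so nothing is read from which genes came nearest.

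Relatives and partners of the members were listed to see which other genes of each family had a 24 h curve. Of 82 such genes 80 were in the table and 28 were tested in the 11 libraries. Of the 28, 1 passed the shared curve, Klf9, where 1.49% of all genes did. An unadjusted p under 0.05 was found for 7 of the 28 and for 698 of the 5852, and the median edgeR amplitude was 0.30 against 0.23 over all genes. None of 3 deubiquitinase relatives of Usp2 (Usp8, Usp15 and Usp4), of Ypel3 and Ypel5, of 8 tetraspanins or of 4 electron transfer partners of Por passed by edgeR. Their amplitudes were 0.14, 0.14 and 0.08 for the 3 deubiquitinases and 0.46 and 0.30 for Ypel3 and Ypel5. Those of Usp2 and Ypel2, which were chosen by their course over time, were 1.10 and 0.89. Pim1, Pim2, Lonrf1 and Lonrf2 were too low to be tested, and of 10 cell cycle partners of Wee1 only Cdc25a was tested (amplitude 0.06). Among 4 tested genes of coenzyme Q synthesis, Coq8a came nearest (amplitude 0.66 ± 0.21, with an adjusted p by edgeR of 0.0577). Of 3 tested early response genes of TGF-beta and 2 tested immediate early genes none passed by edgeR, and 0 and 1 had an unadjusted p under 0.05.

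The 10 other tested genes known as clock outputs had amplitudes below those of the 4 tested members. Since the members were chosen by their course over time in these libraries, nothing is read from that gap. Of 24 listed symbols 23 were in the table, 10 were tested, 2 passed by edgeR in the 11 libraries (1.49% of all genes) and none in all 12 (0.155%). In the 11, 6 of the 10 had an unadjusted p under 0.05, against 698 of 5852 genes, and the median edgeR amplitude was 0.43 against 0.23. The 2 were Klf9, a relative of Klf10 and Klf11 that glucocorticoids induce, and Herpud1, a gene of the unfolded protein response. Klf9 had an amplitude of 0.48 ± 0.07, peaked at 10.1 ± 0.7 h and had an adjusted p of 0.0229 by edgeR, 0.0566 by DESeq2 and 0.0271 by limma-voom. Herpud1 had 0.54 ± 0.14, peaked at 12.9 ± 1.0 h and had adjusted p of 0.0363, 0.0165 and 0.0166 by the same tools. Neither call was firm, since leaving out 1 more library ended it in 6 of 11 fits for Klf9, up to an adjusted p of 0.138 by edgeR, and in 7 of 11 for Herpud1, up to 0.266. For Klf9 these were Young 8, 12 and 24 h and Old 8, 12 and 20 h, and for Herpud1 Young 12 h and all 6 Old libraries. Tsc22d3, which encodes the glucocorticoid-induced leucine zipper, had an amplitude of 0.61 ± 0.16 and an adjusted p of 0.148 by edgeR, and the transferrin receptor gene Tfrc 0.59 ± 0.20 and 0.263.

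The level of the members in Old against Young is a measure that did not choose them. In the 11 libraries 0.205% of the 5852 genes differed with age by edgeR after Benjamini-Hochberg adjustment, and 0 of the 4 tested members did. DESeq2 (0.239% of genes) and limma-voom (0.171%) also called 0 of the 4, and DESeq2 gave no adjusted p for Usp2. Of the 4, Por alone had an unadjusted p under 0.05 by edgeR and by limma-voom, and none by DESeq2. Of all tested genes 6.15% had one by edgeR, 3.37% by DESeq2 and 6.22% by limma-voom. Por averaged 22.4 ± 11.1 CPM in Young (SD over times, n = 5) and 14.3 ± 7.50 CPM in Old (n = 6). The Old means of Por, Usp2, Pim3 and Ypel2 include 4 h, which the Young means lack, so they do not cover the same times. It was lower in Old at all 5 times both ages have, but only just at 20 h. There it stood at 9.38 CPM in Old and 9.52 CPM in Young, from 11 and 10 counts. The fitted log2 difference of Por, Old minus Young, was -0.50 ± 0.24 (SE). Its adjusted p by edgeR was 0.752 in 11 libraries and 0.784 in all 12. Usp2 averaged 15.7 ± 8.09 and 10.6 ± 9.23 CPM, a log2 difference of -0.56 ± 0.25, and was also lower in Old at 5 of 5 times (adjusted p = 0.849 by edgeR). At 8 and 12 h, where Usp2 was high, its difference on the log2(CPM + 2) scale was only -0.12 and -0.04, against -1.03 at 20 h. Its raw counts at 8 and 12 h, 18 and 34, were the same in both ages. Marker sums of other cell types were not tested for age. Those of fibroblasts and adipocytes were lower in Old at 8, 12, 16 and 20 h but higher at 24 h. The ranges of acinar, ductal and endothelial sums largely overlapped between ages. The 4 fibroblast markers, with counts in every library, summed to 219 to 352 CPM in Young and to 78.1 to 206 CPM in Old apart from 335 CPM in Old 24 h. The 4 adipocyte markers summed to 17.1 to 81.7 CPM in Young and 5.77 to 34.2 CPM in Old, Adipoq being at 0 in 6 of the 11. Their part in the differences of the members was not tested.

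Pim3 averaged 57.7 ± 24.1 CPM in Young and 49.97 ± 40.4 CPM in Old, and Ypel2 19.8 ± 10.5 and 17.5 ± 9.67 CPM. Their log2 differences were -0.31 ± 0.30 and -0.17 ± 0.16, with adjusted p of 0.960 and 0.965 by edgeR. Leaving out 1 library moved the Pim3 difference between -0.11 (without Young 20 h) and -0.49 (without Old 12 h), and that of Ypel2 between -0.039 (without Young 16 h) and -0.28 (without Young 20 h). In CPM, each was lower in Old at 4 of 5 times, Pim3 higher at 12 h and Ypel2 at 20 h. Raw counts, not scaled for depth, hardly differed over these 5 times. They summed to 319 in Young and 320 in Old for Pim3, and to 109 in each age for Ypel2. Ypel2 had the same count in both ages at 8 h (10) and 24 h (39). With no filter on low counts, all 10 members were tested, 0 passed by edgeR where 0.125% of genes did, and 1, Por, had an unadjusted p under 0.05, as 3.40% of genes did. Some of the 6 lowest members had positive differences. Coq10b was higher in Old at all 5 shared times (33 raw counts against 18, log2 difference 0.60 ± 0.34), and Lonrf3 at 4 of 5 (37 against 21, 0.80 ± 0.39). Klf10 had 31 counts against 16 and was higher at 3 of 5 (0.34 ± 0.37). These differences are from least squares. By edgeR without a filter they were 0.72 for Coq10b, 0.89 for Lonrf3 and 0.68 for Klf10. The adjusted p of these 3 genes was 0.795 each in that edgeR fit.

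**Figure D4:**
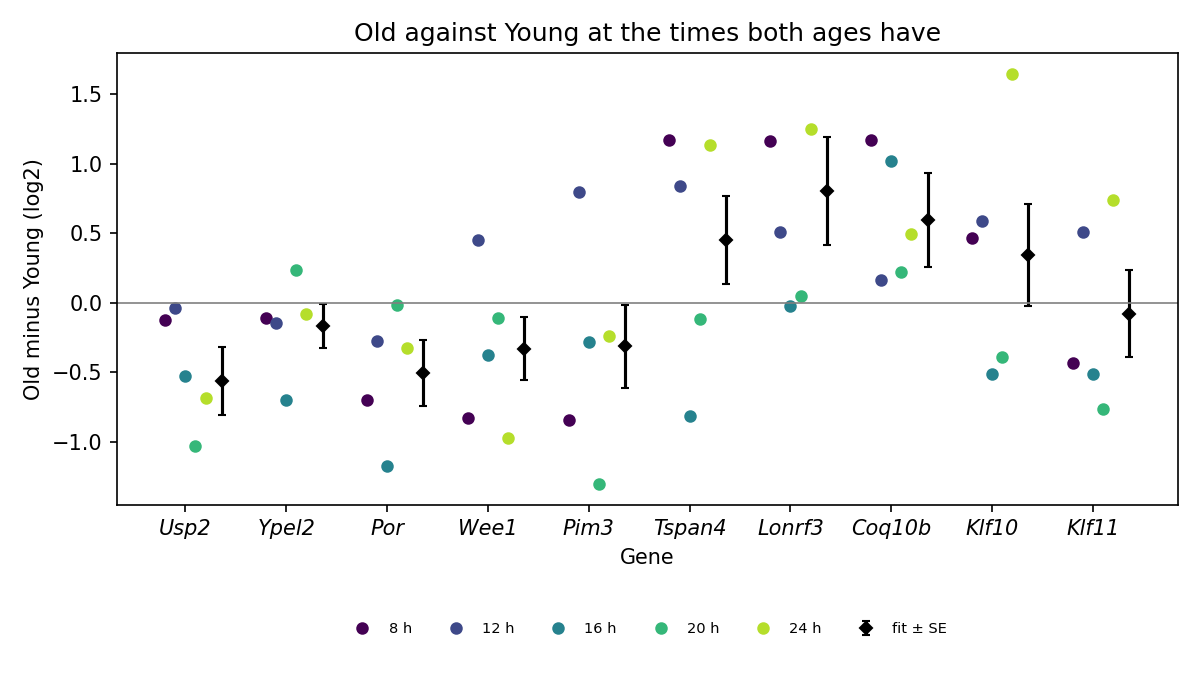
Old minus Young for each member, as log2((CPM + 2)/(CPM + 2)) at 8, 12, 16, 20 and 24 h (coloured points) and as the fitted log2 difference with its SE (black diamonds). All 5 points of Usp2 and of Por lie below 0, Por at 20 h only just (-0.019), and all 5 of Coq10b above it. No member passed the test of age.

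Whether the 24 h course itself differed between ages was tested by the 2 interaction terms of age and curve. Curves by age were known when the members were chosen, so this test is only partly independent of the choice. In the 11 libraries 0% of genes passed by edgeR, and 0 of the 4 tested members, of which 0 had an unadjusted p under 0.05 by edgeR (4.07% of all genes), DESeq2 (0.871%) or limma-voom (3.88%). The smallest by edgeR was 0.212 unadjusted, for Pim3, with adjusted p of 1.00 for each of the 4. Leaving out 1 more library brought the unadjusted p of Pim3 by edgeR to 0.0376 (Young 8 h left out), 0.0174 (Young 24 h) or 0.0140 (Old 8 h), with adjusted p of 0.696, 0.573 and 0.999. Pim3 had an amplitude of 0.79 ± 0.33 in Young (n = 5) and 1.18 ± 0.30 in Old (n = 6), with peaks at 11.8 ± 1.9 and 11.1 ± 1.0 h respectively. The Young curve of Usp2 had 0.89 ± 0.30 and peaked at 12.8 ± 1.3 h, and the Old curve 1.32 ± 0.21 and 12.0 ± 0.6 h. For Por the Young curve had 0.79 ± 0.28 and 11.8 ± 1.6 h and the Old curve 0.55 ± 0.24 and 11.4 ± 1.7 h. These p-values do not show that the curves were alike. Among the 10 genes tested without a filter, Lonrf3 had the smallest unadjusted p, 0.0329 (adjusted p = 1.00 by edgeR). It alone was under 0.05, as 2.88% of all genes were in that fit, where 0.0911% passed after adjustment. The amplitude of Lonrf3 was 1.45 ± 0.27 in Young, from 0 to 10 counts a library, and 0.58 ± 0.31 in Old.

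Adding Young 4 h changed some members more than others. With all 12 libraries the amplitude of Usp2 was 1.18 ± 0.17, of Ypel2 0.92 ± 0.11, of Pim3 1.12 ± 0.28 and of Por 0.63 ± 0.19, with peaks at 12.5 ± 0.5, 21.7 ± 0.5, 12.3 ± 0.95 and 10.6 ± 1.1 h (SE, n = 12). The Young curve of Lonrf3 had an amplitude of 1.45 ± 0.27 without it and 0.88 ± 0.72 with it, and that library held 43 counts (9.12 CPM). The log2 age difference of Usp2 was -0.51 ± 0.23 with it, of Ypel2 -0.091 ± 0.16, of Por -0.66 ± 0.27 and of Pim3 -0.016 ± 0.39, the last being nearest to 0. In the fit of age, 0.0172% of 5808 genes passed by edgeR and by limma-voom and 0.0861% by DESeq2, and 0 of the 4 members by any of these, Por having an unadjusted p under 0.05 by each, as 5.80%, 4.37% and 6.63% of genes did by edgeR, DESeq2 and limma-voom. In the test of the curve between ages 0% passed by each tool.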

How the data were processed

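Whole-number counts per gene symbol were deposited by the authors for 12 libraries, 1 column each. The submitters' processing notes name STAR, HTSeq and the build GRCm38 (mm10), with no versions, while the deposited workbook's name refers to featureCounts. Annotation, strand setting and treatment of multiply matching reads were left as not given in the sources used here. RNA was extracted with TRIzol and a column and made into Illumina mRNA libraries, per the labels' protocols.

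Ages and times came from the labels, and every column matched 1 sample. After filterByExpr by age (5852 genes in 11 libraries, 5808 in 12) and TMM scaling, edgeR's quasi-likelihood model (4.0.16, R 4.3.3) held age plus a 24 h cosine and sine, with Benjamini-Hochberg adjustment over all tested genes and calls under 0.05. Amplitudes, peaks and differences with SE came from least squares on log2 CPM with a prior count of 2. An adjusted p by edgeR tests edgeR's own coefficient, which differs somewhat from these. Printed CPM used TMM factors of all 12 libraries. The members, lists and tests were chosen with earlier results of these data known. Named are all members, core clock genes, up to 4 genes a list with the largest amplitude, and the 3 most similar genes of each tested member. Alternatives were DESeq2 1.42.0, limma-voom (limma 3.58.1), other scaling and filters, collection time as a block, no time term and leaving out each library. The fits were tested on simulated data. Intervals and floors cover counting error only. Positions are from RefSeq GRCm38.p6, where 39350 (96.4%) of the symbols matched, exons from GENCODE. Figures used matplotlib 3.10.9.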

Additional observations from a re-analysis of the deposited data

Results flagged for a closer look

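Among 20 sets of 6 libraries (10 genes in each age, Young 4 h included), 4 had a highest library set apart from the rest by more than Dixon's 95% limit, a limit that chance passes in about 1 in 20 sets. The members were chosen for varying over the day, so their count is not read against that rate. Por stood at 29.4 CPM in Old 12 h with the next Old library at 13.2 CPM, and Pim3 at 128 CPM in the same library with the next at 47.7 CPM. Tspan4 stood at 13.1 CPM in Young 16 h with the next at 5.71 CPM, which is 13 counts against 6. Coq10b stood at 8.99 CPM in Young 12 h with the next, Young 4 h, at 3.82 CPM.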

How the results depend on the processing

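The counts of members differing with age (0) or in their curve between ages (0) were 0 under every alternative run, including all 12 libraries, no filter, DESeq2, limma-voom and leaving out any 1 of the 11. With collection time as a replicate block over the 5 shared times, 0 members and 11 genes differed with age, against 9 genes in the same 10 libraries (without Old 4 h) without the block. The labels carry no replicate numbers, so pairing by time is the only block. Of the 4 members called for a shared curve, 2 remained in all 12 libraries, 1 with limma-voom there, and 2 to 4 when 1 of the 11 was left out. The Por call ended in 7 of these 11 fits (Young 12, 20, 24 h and Old 4, 8, 12, 20 h) and the Usp2 call in that without Old 12 h. Over all genes, the 87 curve calls became 9 in all 12 libraries (40 by DESeq2 and 8 by limma-voom), 180 without a filter, and 37 to 105 when 1 library was left out. The 12 age calls became 1 in 12 libraries (5 by DESeq2 and 1 by limma-voom), 33 without a filter and 5 to 16. The 0 interaction calls became 24 without a filter, 2 with at least 1 CPM in 6 libraries and 0 to 4. Fitted amplitudes, age differences and peaks of the 10 members were recomputed as 130, 150 and 130 values. All moved by less than the spread of single libraries. Small age differences such as those of Pim3, Ypel2 and Klf10 still moved by over 1.5 times, and that of Klf11 took either sign. That of Pim3 was also positive, 0.065, by limma-voom in all 12 libraries. DESeq2 and limma-voom in all 12 libraries were added after seeing the data. Causes were not tested. Depth limits the 6 members under 16 counts a library, where 1 count is a large share of the value.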
